A study of Homo sapiens with 8 samples.

Results

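OR21, named in the title of the series as a demethylating agent, was given to K562 cells with and without imatinib (IM), and its effect is described here over the 4 K562 arrays of a set of 8. The arrays were taken by their labels: 2 had OR21 (OR21 alone and the combination) and 2 did not (control and IM). K562 is an established line of chronic myeloid leukaemia cells with an erythroid character, and carries the BCR-ABL1 fusion kinase that IM inhibits. The OR21 array came from cells exposed to 100 nM OR21 over 3 days, the combination array from cells given the same OR21 exposure and then 1000 nM IM for 24 hours, the control array from untreated cells and the IM array from cells given 1000 nM IM for 24 hours alone. For the combination, the OR21 dose is missing from the label and was read from the treatment protocol. The other 4 arrays held the same treatments of a second chronic myeloid leukaemia line, KBM5, and are used only where the lines are compared.

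Each treatment had 1 array, so the effect of OR21 was read from 2 pairs that share no array: OR21 against control, and the combination against IM. The OR21 effect of a gene is the mean of these 2 log2 intensity differences. Its SE and p-value come from limma (R) on all 8 arrays with separate OR21 and IM terms for each line, adjusted by the Benjamini-Hochberg method over 17687 genes, and calls were made where the adjusted p was below 0.05. The SE pools over both lines how far the 2 pairs of a line depart from each other, with moderation over genes, and holds no spread between repeated cultures. A gene whose KBM5 pairs disagree can therefore miss the call in K562: PPP1R27 was higher by 2.07 and 2.12 in the 2 K562 pairs, with an SE of 0.57 (limma adjusted p = 0.612). With so few arrays, every value has limited precision. An intensity counted as background when it was not above the 95th percentile of its array's negative controls, which was 162 on the OR21 array, 182 on the combination array, 161 on the control array and 186 on the IM array. Above it were 7083 and 6762 genes with OR21, against 7061 and 6662 without. Median intensities over all probe sets were 77.8 to 80.2. Of the 9 K562 markers measured, all 9 were above background on all 4 arrays, while 10 of 12 markers of other myeloid cells, including MPO and CSF3R, were at background on all 4.

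DNA methylation is the addition of a methyl group to cytosine, in animals mostly where it is followed by guanine (CpG). DNMT1 copies the pattern to the new strand at each round of replication, and agents that block it cause dividing cells to lose methylation. Genes of the germ line, among them the cancer-testis genes of the X chromosome, are held silent by promoter methylation in most body cells and are the best known genes to come on after such agents. No methylation was measured on these arrays. In RNA from whole cultures, a change in the share of cells that express a gene and a change in the RNA per cell cannot be told apart.

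OR21 raised few genes, and the calls ran one way. Among 17687 genes, 16 were called higher with OR21 (0.0905% of the genes tested) and 0 were called lower (0%). At an unadjusted p under 0.05 the numbers were 490 higher (2.77%) and 373 lower (2.11%). By size alone, 47 genes were at least 2-fold higher in both pairs (0.266%) and 4 were at least 2-fold lower in both (0.0226%). The 47 raised genes fell into 6 that were switched on from background (0.0339% of all genes), 11 that were expressed on all 4 arrays, 16 that stayed at background on all 4 and 14 that were above background on 1 to 3 arrays without meeting the rule for switching. A gene counted as switched on when it was at background on both arrays without OR21, above it on both arrays with OR21, and at least 2-fold higher in both pairs. No gene was switched off by the mirror of that rule. Across all genes the median OR21 effect was -0.01 on the log2 scale, and the central 95% of genes lay between -0.73 and 0.79 in the OR21 pair and between -0.79 and 0.81 in the combination pair.

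**Figure D1:**
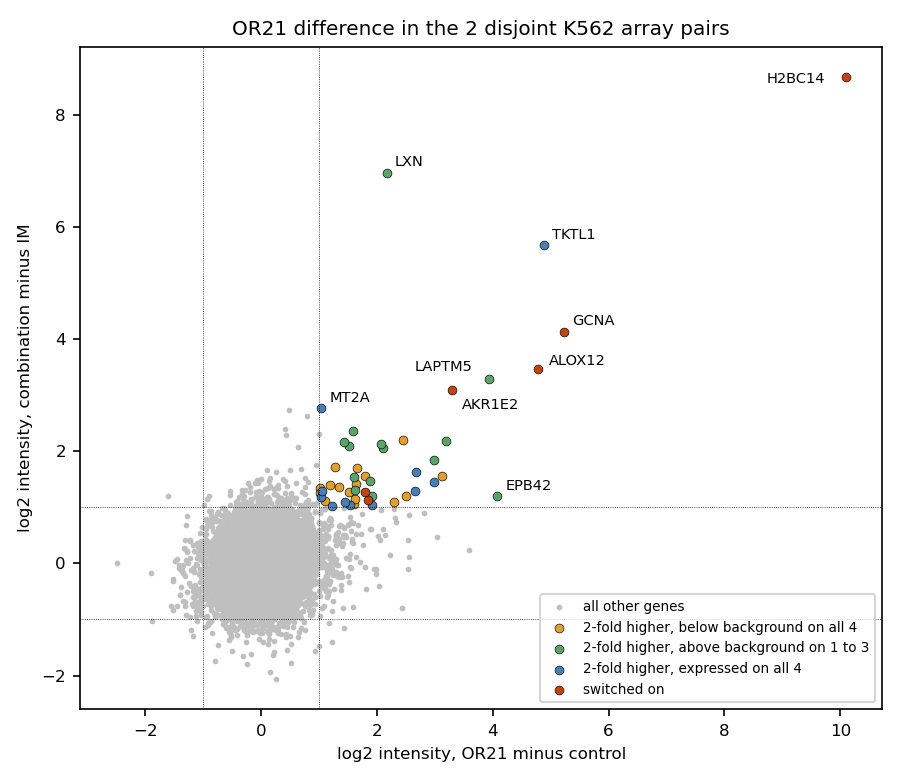
Log2 intensity difference of each of 17687 genes between OR21 and control (horizontal) and between the combination and IM (vertical) in K562 cells, 1 point a gene, with dotted lines at 2-fold. Coloured points are the 47 genes at least 2-fold higher in both pairs, by class; most genes lie around 0 in both pairs, and H2BC14, TKTL1 and GCNA lie farthest along both axes together.

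The 5 promoters that follow belong to the 4 switched-on genes with the largest lower bound on their fold and to TKTL1, the expressed gene with the largest called rise, and are shown because methylation of promoter CpG is what such agents are known to remove. Each runs from 250 bases before the annotated start to 50 after it, on the plus strand, from RefSeq on GRCh38.p14, with CpG in capitals: chr6:27814772-27815071 for H2BC14, chrX:71578187-71578486 for GCNA, chr17:6995799-6996098 for ALOX12, chr10:4825927-4826226 for AKR1E2 and chrX:154295545-154295844 for TKTL1.
H2BC14: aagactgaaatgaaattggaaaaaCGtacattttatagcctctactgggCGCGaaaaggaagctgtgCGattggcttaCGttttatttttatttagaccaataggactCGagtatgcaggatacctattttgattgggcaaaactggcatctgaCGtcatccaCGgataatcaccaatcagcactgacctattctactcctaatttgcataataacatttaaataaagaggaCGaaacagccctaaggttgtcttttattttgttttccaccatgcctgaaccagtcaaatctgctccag
GCNA: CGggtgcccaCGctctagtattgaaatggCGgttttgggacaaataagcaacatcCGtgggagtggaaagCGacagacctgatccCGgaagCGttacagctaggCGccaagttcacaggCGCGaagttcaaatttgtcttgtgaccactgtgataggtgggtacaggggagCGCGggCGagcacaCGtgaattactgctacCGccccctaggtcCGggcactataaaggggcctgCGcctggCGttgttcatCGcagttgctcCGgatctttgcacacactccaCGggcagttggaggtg
ALOX12: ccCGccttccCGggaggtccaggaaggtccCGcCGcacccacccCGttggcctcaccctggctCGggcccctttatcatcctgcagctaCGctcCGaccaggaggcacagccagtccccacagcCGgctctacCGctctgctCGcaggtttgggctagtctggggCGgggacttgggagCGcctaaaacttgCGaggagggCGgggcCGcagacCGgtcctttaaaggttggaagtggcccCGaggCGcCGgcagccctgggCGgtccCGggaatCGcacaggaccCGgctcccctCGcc
AKR1E2: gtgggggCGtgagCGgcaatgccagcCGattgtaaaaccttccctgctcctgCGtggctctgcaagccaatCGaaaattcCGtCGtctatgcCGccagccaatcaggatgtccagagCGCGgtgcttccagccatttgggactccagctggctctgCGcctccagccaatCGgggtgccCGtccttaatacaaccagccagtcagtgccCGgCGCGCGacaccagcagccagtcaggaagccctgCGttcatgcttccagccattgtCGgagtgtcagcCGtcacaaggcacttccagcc
TKTL1: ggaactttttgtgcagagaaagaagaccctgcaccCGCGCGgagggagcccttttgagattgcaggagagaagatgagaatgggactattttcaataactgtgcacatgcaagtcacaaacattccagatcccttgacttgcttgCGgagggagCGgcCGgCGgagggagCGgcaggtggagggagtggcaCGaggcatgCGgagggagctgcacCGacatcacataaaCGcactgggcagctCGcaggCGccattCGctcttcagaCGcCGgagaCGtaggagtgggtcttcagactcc

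The windows held 9 CpG at H2BC14, 21 at GCNA, 25 at ALOX12, 20 at AKR1E2 and 18 at TKTL1, against a median of 22 over the 14250 measured genes that have a promoter in the table. H2BC14 had the most AT-rich of these windows, at 39.3% G and C. Its window also held 5 matches to CCAAT and 1 to TATAAA, counting both strands, and AKR1E2 had 3 matches to CCAAT. ALOX12 had 3 matches to GGGCGG, a motif that contains a CpG. Over all promoters, 36.4% held CCAAT, 9.41% TATAAA and 59.5% GGGCGG. Grouped by response, the median was 16.5 CpG over the 14 called genes with a promoter, 12 over 38 genes raised 2-fold in both pairs and 20 over 371 genes higher at an unadjusted p under 0.05, beside 19 over 283 genes lower at that threshold. Genes above background on all 4 arrays had a median of 27 CpG and genes at background on all 4 had 15.

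The switched-on genes were led by H2BC14, which encodes a replication-dependent histone H2B. H2BC14 read 20592 on the OR21 array and 5283 on the combination array, against 18.9 on control and 12.9 on IM. Both arrays without OR21 were far under background. The difference was 10.09 in the OR21 pair and 8.68 in the combination pair on the log2 scale, with an OR21 effect of 9.38 ± 0.48 (SE, limma adjusted p = 1.58e-05). Since the level without OR21 was below background, the rise is given as at least 60.3-fold. This and the other bounds set the mean log2 intensity with OR21 against the mean log2 background of the 2 arrays without it.

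GCNA, a germ cell nuclear protein gene on the X chromosome, came next. GCNA read 1524 with OR21 and 857 in the combination, against 40.5 in control and 48.7 in IM, at least 6.61-fold higher with OR21 (effect 4.69 ± 0.31, limma adjusted p = 0.000149). ALOX12, which encodes the 12-lipoxygenase of arachidonic acid metabolism, read 381 with OR21 and 561.9 in the combination, against 13.8 in control and 51.0 in IM. ALOX12 was thus at least 2.68-fold higher (effect 4.12 ± 0.31, limma adjusted p = 0.000349). AKR1E2, an aldo-keto reductase gene, read 421 with OR21 and 339 in the combination, against 43.0 in control and 39.6 in IM, at least 2.18-fold higher (effect 3.19 ± 0.27, limma adjusted p = 0.000658). The rule for switched-on genes requires a rise in both pairs and values on opposite sides of background, so neither is a separate result for these 4 genes.

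The remaining switched-on genes were close to background and were not called. FUZ, which encodes an effector of planar cell polarity, read 240.5 with OR21 and 285.5 in the combination, against 69.0 in control and 118 in IM (effect 1.54 ± 0.29, limma adjusted p = 0.181). PPM1N, of the protein phosphatase PPM family, read 228 and 253 with OR21 and the combination, against 63.2 and 115 in control and IM (effect 1.49 ± 0.29, limma adjusted p = 0.181). PPM1N was the last gene inside the threshold, with 2.20-fold in its smaller pair. DNALI1, a dynein light chain gene, was the first outside it, with 1.96-fold in its smaller pair and intensities of 228 and 233 with OR21 against 117 and 111 without.

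**Figure D2:**
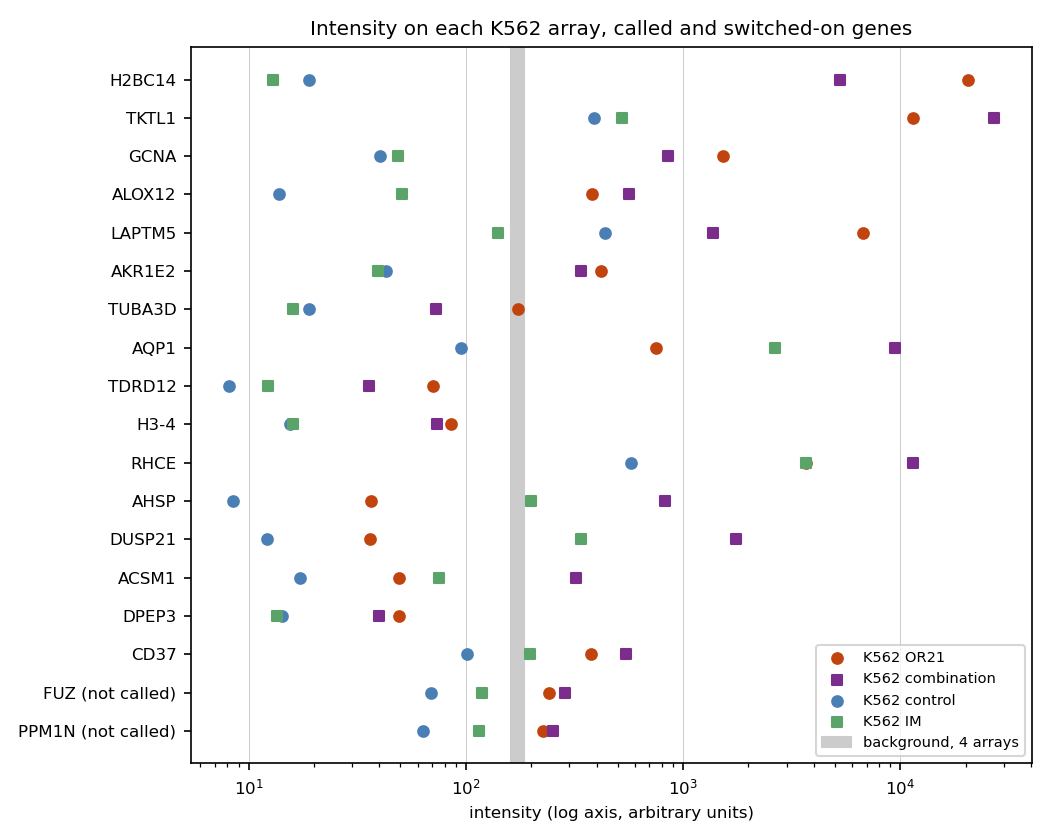
Intensity (log axis, arbitrary units) on the K562 OR21, combination, control and IM arrays for the 16 genes called higher with OR21 and the 2 switched-on genes not called, in order of the OR21 effect; the grey band spans the 4 array backgrounds. H2BC14 lies at 18.9 or below on both arrays without OR21 and at 5283 or above on both arrays with it, and 3 called genes (H3-4, TDRD12 and DPEP3) lie left of the band on all 4 arrays.

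The genes beside H2BC14 were already expressed, so none of them could meet the rule for switching on. In the order of tested genes on GRCh38.p14, the 6 nearest neighbours of H2BC14 were histone genes H2AC13, H3C10, H2AC14, H4C11, H4C12 and H2AC15. All were above background on all 4 arrays, with OR21 effects of -0.20 to 0.53, and none of them was called. None of the 6 nearest tested genes of GCNA, ALOX12, AKR1E2, FUZ, PPM1N, TKTL1 or RHCE was 2-fold higher in both pairs, while 1 of the 6 nearest to CT45A1 was, its close copy CT45A3. Over all genes the share was 0.266%, so finding none among 6 says little about them. RHD, beside RHCE, was higher by 2.82 in the OR21 pair and 0.89 in the combination pair, short of 2-fold only in the latter. The 6 effects near RHCE ran from -0.00 to 1.86, and none of these genes was called. Among 65 replication-dependent and related histone genes, 2 were called higher, H2BC14 and H3-4 (0.0905% of all genes were), the median OR21 effect was -0.11, and 17 were higher in both pairs, a share of 26.2% beside 24.7% of all genes. H1-5, a linker histone gene expressed at a low level in these cells, read 1949 and 621 with OR21 and the combination, against 247 and 227 in control and IM (effect 2.22 ± 0.36, limma adjusted p = 0.0766, not called). H3C11 read 251 and 139, against 81.5 and 56.3, and was not called (limma adjusted p = 0.079). H3-4, an H3 gene known from the testis, read 85.6 and 73.5 with OR21 and the combination, against 15.6 and 15.9 in control and IM. H3-4 was called (effect 2.33 ± 0.23, limma adjusted p = 0.00314) although all 4 values were below background, so no fold is given. Histone genes are close copies of each other and may share probe signal.

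Among the 11 genes already expressed and raised 2-fold in both pairs, 2 were called. TKTL1, a transketolase-like gene of the X chromosome that is counted among the cancer-testis genes, read 11442 with OR21 and 26951 in the combination, against 389 in control and 524 in IM. TKTL1 was higher by 4.88 in the OR21 pair and 5.68 in the combination pair, a 38.9-fold mean rise (effect 5.28 ± 0.27, limma adjusted p = 1.58e-05). RHCE, which encodes an Rh blood group protein of the red cell membrane, read 3670 with OR21 and 11431 in the combination, against 578 in control and 3691 in IM (effect 2.15 ± 0.28, limma adjusted p = 0.0253). The IM array alone was as high for RHCE as the OR21 array, so the rise shows within each pair and not between all arrays with and without OR21.

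The other 9 genes of that class were not called. SLC7A8, an amino acid transporter gene, read 1471 and 1007 with OR21 and the combination, against 233 and 411 in control and IM (limma adjusted p = 0.0793). FAM178B read 19480 and 6068, against 7108 and 2846 (limma adjusted p = 0.159). ABRAXAS1, of the BRCA1-A complex, read 3336 and 12282, against 1427 and 6056 (limma adjusted p = 0.37). The class also held the cancer-testis genes CT45A1 and CT45A3, the metallothionein gene MT2A, the potassium channel gene KCNN4 and the polyamine transporter gene SLC18B1. Among expressed genes 1 was 2-fold lower in both pairs, SOSTDC1, which encodes an antagonist of BMP and WNT signals. SOSTDC1 read 165 with OR21 and 203 in the combination, against 610 in control and 412 in IM (effect -1.45 ± 0.27, limma adjusted p = 0.174, not called).

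A further 10 genes were called without being switched on or expressed on all arrays. LAPTM5, a lysosomal membrane protein gene of blood cells, read 6731 with OR21 and 1373 in the combination, against 438 in control and 141 in IM, where it was at background (effect 3.61 ± 0.30, limma adjusted p = 0.00066). CD37, a tetraspanin gene of leucocytes, read 375 and 547 with OR21 and the combination, against 102 and 198 in control and IM (effect 1.67 ± 0.24, limma adjusted p = 0.0358). For LAPTM5 and CD37 the arrays with OR21 were all higher than those without. TUBA3D, an alpha-tubulin gene, read 174 with OR21 and 73.0 in the combination, where it was below background, against 18.98 and 16.1 in control and IM (effect 2.69 ± 0.29, limma adjusted p = 0.00617).

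In 4 of these genes the array with IM alone was higher than the array with OR21 alone. AQP1, the water channel gene of red cells, read 752 with OR21 and 9494 in the combination, against 95.3 in control and 2656 in IM (effect 2.41 ± 0.31, limma adjusted p = 0.0253). AHSP, which encodes the chaperone of alpha-globin, read 36.6 with OR21 and 828 in the combination, against 8.48 in control and 199 in IM (effect 2.08 ± 0.23, limma adjusted p = 0.0065). DUSP21, a dual-specificity phosphatase gene of the X chromosome, read 36.4 and 1751, against 12.1 and 340 (limma adjusted p = 0.0308). ACSM1, an acyl-CoA synthetase gene, read 49.4 and 321, against 17.2 and 75.5 (limma adjusted p = 0.0358). AHSP, DUSP21 and ACSM1 were at background on the OR21 array, so for them the rise was above background in the combination pair alone. The remaining 2 called genes, TDRD12 and DPEP3, were below background on all 4 arrays. DPEP3, a dipeptidase gene known from the testis, read 49.4 and 39.8 with OR21 and the combination, against 14.3 and 13.5 in control and IM (limma adjusted p = 0.035).

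Calls depended on which arrays were kept. H2BC14, GCNA, ALOX12, AKR1E2 and TKTL1 were called under all 16 alternative fits, LAPTM5 under 15 and RHCE and AQP1 under 13. These fits are not all distinct. Leaving out any KBM5 array gave the same K562 result as the K562 arrays alone. Leaving out the K562 control or the K562 OR21 array left the same combination pair, and leaving out the K562 IM or combination array left the same OR21 pair. Each fit without a K562 array thus set 1 K562 array against 1. Its spread came from the KBM5 arrays alone, with moderation over genes. Calls kept or lost in those fits therefore hold no measure of the spread in K562. With the K562 control or the K562 OR21 array left out, 9 genes were called higher, 6 of them among the 16, and with the K562 IM or combination array left out, 13 genes, 10 of them among the 16. ACSM1, AHSP, CD37, DPEP3, DUSP21 and H3-4 lost their call with either pair alone, and AQP1, RHCE, TDRD12 and TUBA3D with the combination pair alone.

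Some X-linked cancer-testis genes stood higher with OR21, most of them at low levels. Of 63 measured members of a list of 75, 1 was called higher (TKTL1), beside 0.0905% of all genes. At an unadjusted p under 0.05, 18 were higher (28.6% of the list, beside 2.77% of all genes) and 0 lower (beside 2.11%). The median OR21 effect of the list was 0.12, and 28 members (44.4%) were higher in both pairs, beside 24.7% of all genes. Levels were mostly low: 44 of the 63 were at background on all 4 arrays and 11 above it on all 4. Chromosome X carried 4.01% of the tested genes, 3 of the 16 called genes (18.8%), 7 of the 47 raised 2-fold in both pairs (14.9%) and 48 of the 490 higher at an unadjusted p under 0.05 (9.80%). It carried 13 of the 373 lower at that threshold (3.49%). The 48 include all 9 measured CT45A genes, described next. Close copies among the X-linked genes may share probe signal, so these counts are not of separate measurements.

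The CT45A genes, a cluster of near-identical cancer-testis genes, were expressed in K562 cells without OR21 and stood higher with it. All 9 measured members were above background on all 4 arrays and higher in both pairs, with OR21 effects of 0.65 to 1.48 and a median of 1.00, and none was called. CT45A1 read 2467 with OR21 and 1573 in the combination, against 651 in control and 762 in IM (effect 1.48 ± 0.31, limma adjusted p = 0.26). CT45A3 read 4513 and 3379 with OR21 and the combination, against 1562 and 1632 in control and IM (limma adjusted p = 0.547). Probes of the CT45A genes can share signal, and CT45A8 and CT45A9 had identical values, so the 9 are not separate measurements.

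The XAGE, PAGE and GAGE genes, another X-linked cancer-testis group, stood mostly at background. Of 15 measured, 12 were higher in both pairs, beside 24.7% of all genes, the median OR21 effect was 0.74, 9 were at background on all 4 arrays and none was called. Close copies among these genes may share probe signal as well. PAGE2B read 114 with OR21 and 219 in the combination, against 30.2 in control and 95.1 in IM (limma adjusted p = 0.0793), and XAGE1B read 147 and 111, against 51.7 and 45.8 (limma adjusted p = 0.0963). Of the 10 MAGEA genes measured, 3 were higher in both pairs, near the 24.7% of all genes, with a median effect of 0.04.

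**Figure D3:**
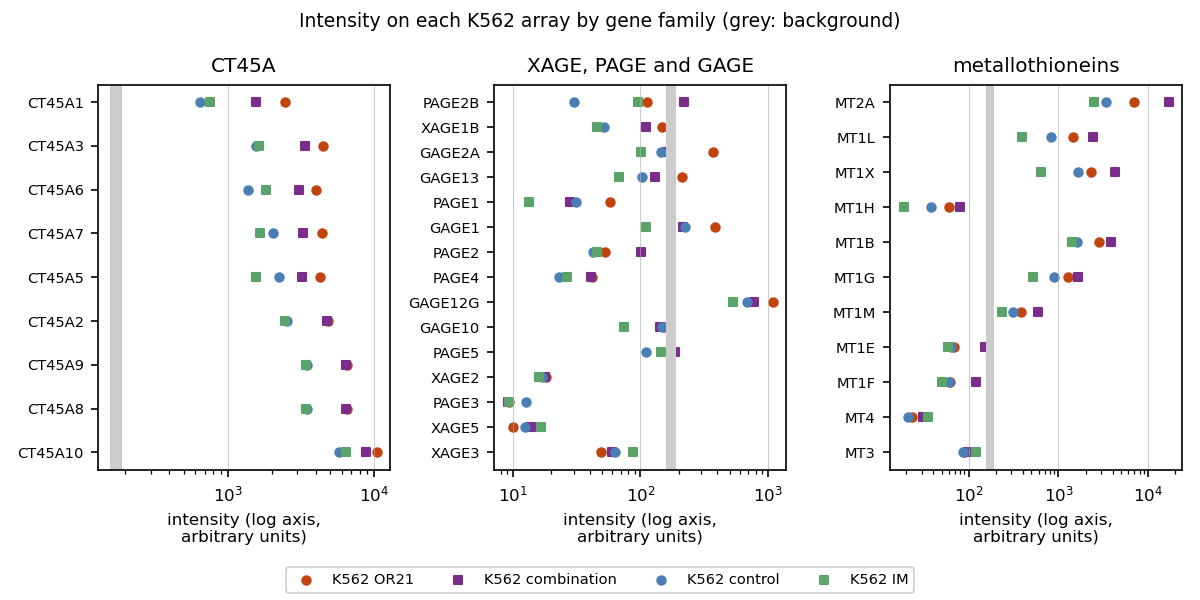
Intensity (log axis, arbitrary units) on the K562 OR21, combination, control and IM arrays for 9 CT45A genes, 15 XAGE, PAGE and GAGE genes and 11 metallothionein genes, in order of the OR21 effect; the grey band spans the 4 array backgrounds. All CT45A points lie right of the band with both OR21 arrays rightmost, 9 XAGE, PAGE and GAGE genes are at background on all 4 arrays, and the combination array is rightmost for most metallothioneins.

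Germline genes, mostly of the autosomes, were largely at background. Of 68 measured members of a list of 76, 56 were at background on all 4 arrays and 10 above it on all 4. In this list 1 gene was called higher, beside 0.0905% of all genes. At an unadjusted p under 0.05, 8 were higher (11.8%, beside 2.77% of all genes) and 3 lower (4.41%, beside 2.11%). The called member, TDRD12, a gene of the piRNA pathway, read 71.0 with OR21 and 36.0 in the combination, against 8.15 in control and 12.3 in IM (effect 2.34 ± 0.34, limma adjusted p = 0.0388). DAZL, an RNA-binding protein gene of germ cells, read 64.8 and 37.6, against 20.6 and 11.6 (limma adjusted p = 0.053), and HORMAD1, of the meiotic chromosome axis, read 77.1 and 50.9, against 15.7 and 23.8 (limma adjusted p = 0.112). All 12 values of these 3 genes were below background, so no fold is given. The median OR21 effect of the list was -0.04.

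Erythroid genes differed between the 2 pairs. In the OR21 pair 10 of 24 measured erythroid genes were at least 2-fold higher with OR21, 8 of them above background on both arrays, beside 1.36% of all genes, and 0 were 2-fold lower, beside 0.622%. In the combination pair 3 were at least 2-fold higher, beside 1.02% of all genes, and 0 lower, beside 0.82%. The list median was 0.71 in the OR21 pair and 0.19 in the combination pair. At an unadjusted p under 0.05 the OR21 effect was higher for 12 of the 24 (50%, beside 2.77% of all genes) and lower for 0 (beside 2.11%). That effect is the mean of the 2 pairs, which differed here. Only 1 member, RHCE, was called higher, beside 0.0905% of all genes. RHD, which lies beside RHCE and shares most of its sequence, read 5524 with OR21 and 13396 in the combination, against 782 in control and 7217 in IM (limma adjusted p = 0.371). KLF1, a transcription factor of the red cell line, read 1168 and 2453, against 429 and 1721 (limma adjusted p = 0.686).

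ALAS2, which encodes the first enzyme of haem synthesis in erythroid cells, read 4611 with OR21 and 90007 in the combination, against 383 in control and 75928 in IM. The difference was 3.59 in the OR21 pair and 0.25 in the combination pair. EPB42, of the red cell membrane skeleton, read 263 and 5624, against 15.6 and 2456. With control at background, EPB42 was at least 1.63-fold higher in the OR21 pair, and it was 2.29-fold higher in the combination pair, so the pairs cannot be ranked for it. SLC4A1, the anion exchanger gene of red cells, read 13.6 and 3654, against 10.2 and 689, at background on both arrays of the OR21 pair and higher by 2.41 in the combination pair. Neither ALAS2, EPB42 nor SLC4A1 was called, and the difference between pairs was not tested, since each pair is 1 array against 1.

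The alpha-type globin genes HBA1 and HBZ likewise had a difference in the OR21 pair and little in the combination pair. HBA1 read 261397 with OR21 and 454281 in the combination, against 66173 in control and 514885 in IM, which is a difference of 1.98 in the OR21 pair and -0.18 in the combination pair. HBZ, the embryonic alpha-like globin, read 193282 and 473566, against 58796 and 467477, with differences of 1.72 and 0.02. HBD, the delta-globin gene, read 163 and 901, against 146 and 3443, a difference of 0.15 in the OR21 pair and -1.93 in the combination pair (effect -0.89, limma adjusted p = 0.999). HBE1, the embryonic beta-like globin, read 21391 and 123758, against 6827 and 86338 (effect 1.08 ± 0.34, limma adjusted p = 0.728). HBE1 was thus higher in both pairs, and more so in the OR21 pair, so this lean was not confined to alpha-type genes. Of the 9 measured genes on the globin list, which includes AHSP, 1 was called higher, AHSP, beside 0.0905% of all genes. In the OR21 pair 5 of the 9 were at least 2-fold higher, 4 of them above background on both arrays, and 0 lower. In the combination pair 1 was 2-fold higher and 1 lower. Over all genes 1.36% were 2-fold higher and 0.622% lower in the OR21 pair, and 1.02% and 0.82% in the combination pair. The summed intensity of the 9 K562 markers, most of which are erythroid, was 526564 on the OR21 array and 1.11e+06 on the combination array, against 171087 on control and 1.12e+06 on IM. HBA1 and HBZ are among the 9 and make up most of the sum on each array, so it largely repeats their values. The part of this shift in the sum in the results on erythroid genes was not tested.

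**Figure D4:**
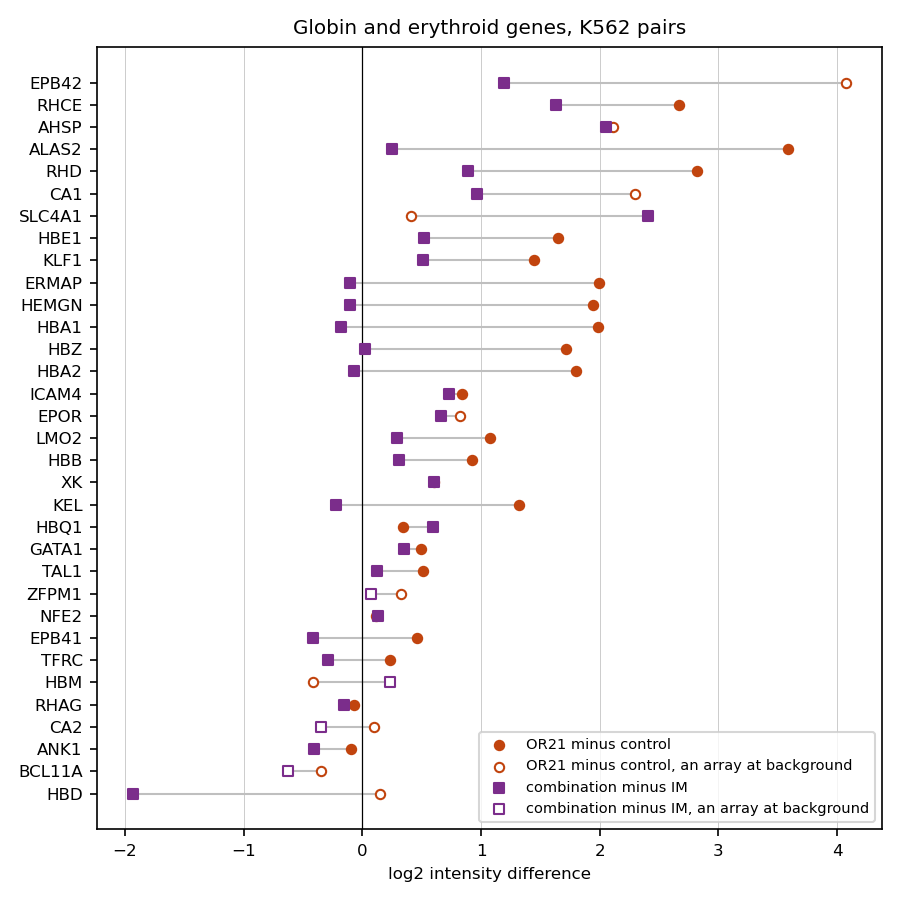
Log2 intensity difference between OR21 and control (circles) and between the combination and IM (squares) for each measured globin and erythroid gene in K562 cells, in order of the OR21 effect. Open symbols mark pairs with an array at background, where the size is not exact, as for EPB42 in the OR21 pair; ALAS2 and HBA1 lie far apart in the 2 pairs, with differences of 3.59 and 1.98 in the OR21 pair and 0.25 and -0.18 in the combination pair.

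Metallothionein genes, whose small proteins bind zinc and copper, leaned toward the combination pair. Of 10 measured members of the list, 8 were at least 2-fold higher in the combination pair (1.02% of all genes were), 5 of them above background on both of its arrays, and 1 in the OR21 pair (1.36% of all genes). The medians were 1.41 in the combination pair and 0.38 in the OR21 pair, and none was called. These genes are close copies and may share probe signal. MT2A read 6928 with OR21 and 16840 in the combination, against 3359 in control and 2478 in IM, with differences of 1.04 and 2.76 (limma adjusted p = 0.162). MT1X read 2327 and 4225, against 1666 and 635, with differences of 0.48 and 2.73. LXN, which encodes a carboxypeptidase inhibitor, read 160 on the OR21 array, just under background, and 5632 on the combination array, against 35.6 on control and 44.8 on IM. LXN was thus at least 30.3-fold higher in the combination pair, 1 array against 1, and at background on both arrays of the OR21 pair. It was not called (effect 4.57 ± 0.78, limma adjusted p = 0.0963).

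No gene of the DNA methylation machinery itself was called. DNMT1 read 946 with OR21 and 727 in the combination, against 905 in control and 761 in IM (effect -0.00 ± 0.23). DNMT3A, a de novo methyltransferase, read 517 and 864, against 358 and 577 (effect 0.56 ± 0.23, limma adjusted p = 0.998), and DNMT3B read 1184 and 225, against 1455 and 314 (effect -0.39 ± 0.26). Of 20 measured genes on the list, 0 were called in either direction. Among 30 genes that handle nucleosides, 0 were called. DCK, the kinase that activates deoxycytidine analogues, read 453 and 318, against 439 and 300 (effect 0.06 ± 0.26), and SLC29A1, a nucleoside transporter, read 4178 and 6302, against 2167 and 5045 (effect 0.63 ± 0.33). CDA, which deaminates cytidine and its analogues, was at background on all 4 arrays. The smallest effect called in any gene was 1.67 (CD37), so a miss in these genes does not show that their levels did not differ.

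The remaining lists held no called gene. Over all genes 2.77% were higher and 2.11% lower at an unadjusted p under 0.05. Megakaryocytic genes had 4 of 18 higher (22.2%) and 0 lower, myeloid genes 4 of 28 higher (14.3%) and 2 lower, and BCL2 family genes 2 of 18 higher (11.1%) and 0 lower. Lymphoid genes had 0 of 22 in either direction, stem and progenitor genes 0 of 14 higher and 1 lower, epithelial and stromal genes 2 of 21 higher and 0 lower, polycomb and silencing genes 2 of 34 higher and 0 lower, and protocadherins 0 of 16 higher and 2 lower. Interferon and nucleic acid sensing genes had 2 of 60 higher and 2 lower at an unadjusted p under 0.05 with a median effect of -0.01. Antigen presentation had 1 of 33 higher and 1 lower, cell cycle genes 1 of 36 higher and 0 lower, and genes reported as methylated in leukaemia 5 of 63 higher and 3 lower. For damage and arrest genes the counts were 0 of 32 higher and 1 lower, and for imprinted genes 3 of 35 higher and 2 lower. Of these, 45 of 60 interferon and sensing genes and 48 of 63 leukaemia-methylated genes were at background on all 4 arrays, where no fold can be given. The same held for 15 of 18 megakaryocytic genes and 24 of 28 myeloid genes. Median effects of the megakaryocytic and myeloid lists were -0.05 and -0.01.

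**Figure D5:**
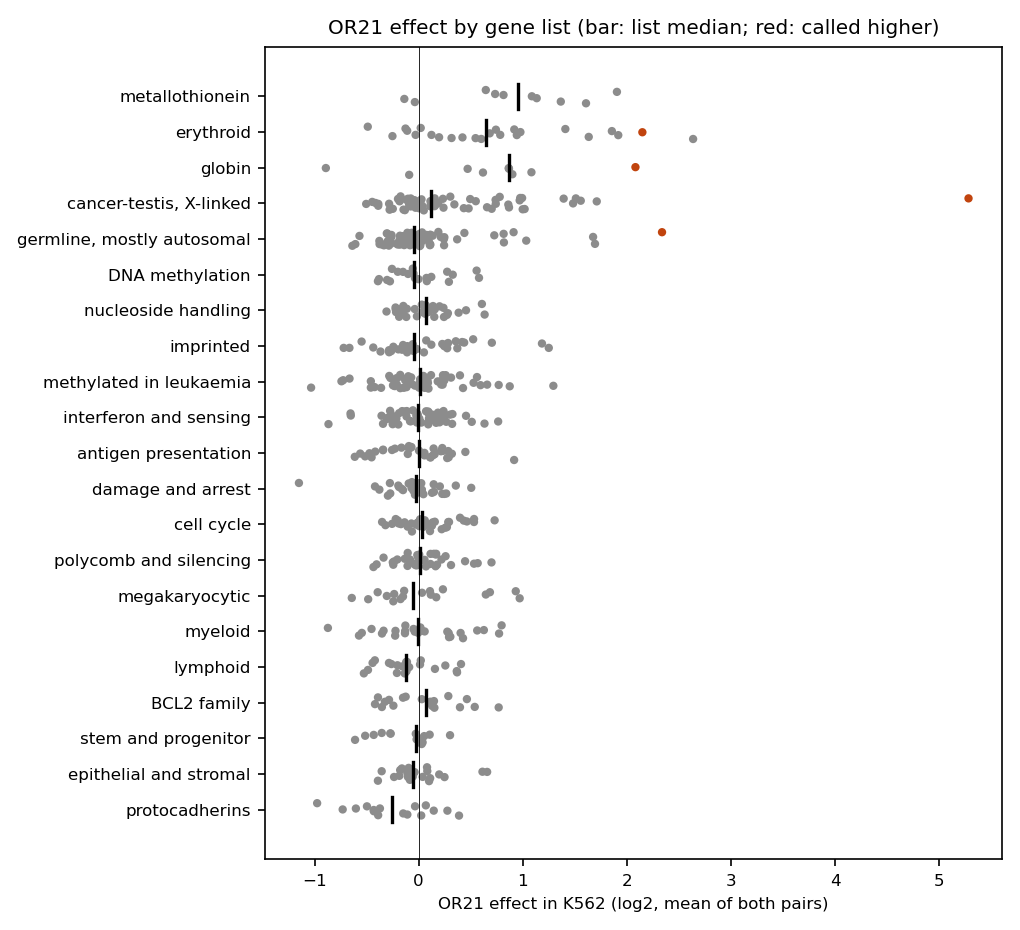
OR21 effect in K562 cells (log2, mean of both pairs) for the measured members of all 21 gene lists, 1 point a gene, with a bar at each list median and called genes in red. Medians of the metallothionein, globin and erythroid lists are 0.95, 0.87 and 0.64, and those of the other lists lie between -0.26 and 0.12.

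The OR21 effect was compared with that in KBM5 cells to see what differed between the lines. It differed at an adjusted p under 0.05 for 18 genes, 10 higher in K562 (0.0565% of genes tested) and 8 lower (0.0452%). H2BC14 was the most different of the 10, with 6.67 more on the log2 scale in K562 (limma adjusted p = 0.00535), and it also read higher with OR21 in KBM5. KBM5 read 291 with OR21 and 41.7 in the combination for H2BC14, against 19.8 in control and 14.2 in IM (effect 2.72 ± 0.48, limma adjusted p = 0.043). Only the OR21 array of KBM5 was above background for H2BC14. The sizes of its KBM5 effect and of its difference between lines are therefore not exact. TKTL1 read 1604 and 3513 in KBM5 with OR21 and the combination, against 751 and 1320 in control and IM (effect 1.25, limma adjusted p = 0.0823), a difference between lines of 4.03 (limma adjusted p = 0.00282). GCNA, ALOX12 and AKR1E2 differed by 4.06, 4.01 and 3.36, with KBM5 effects of 0.62, 0.12 and -0.17. All 3 were at background on all 4 KBM5 arrays and on the K562 arrays without OR21, so the size of these differences is not exact. The lower ones included MPO, which in K562 stayed at background on all 4 arrays and in KBM5 read 11442 and 5283 with OR21 and the combination, against 65.8 and 35.9 in control and IM (difference -7.45, limma adjusted p = 3.2e-05).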

How the data were processed

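Total RNA was measured on 1 array for each of 4 treatments in K562 and KBM5 cells. The authors deposited a linear intensity for each of 24351 probe sets, while the software, summarization and normalization are, in the sources used here, not given. Names came from the platform annotation: 17709 probe sets had 1 symbol and 0 several, giving 17687 genes, and another 3739 transcript clusters were left unnamed. Of several probe sets for a gene (20 genes), the brightest on average represented it. Intensities were taken as log2(value) without further normalization and fitted in limma 3.58.1 (R 4.3.3) with a baseline, an OR21 term and an IM term for each line (2 residual and 8.309 prior degrees of freedom). The procedure was tested on simulated data. A fold against a level at background is given as a bound, and none where both sides were. Log2 differences and limma effects are printed as measured, and where they rest on values at background their size is not exact.

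Genes were named by rule: switched-on and expressed genes by size of the smaller pair or effect, called list members, drug target genes, the genes whose pairs differ most and the largest differences from KBM5. Genes raised in both pairs that fall outside these, and DNALI1, were chosen after their values were seen. The members, lists and rules were chosen with earlier results of these data known. Alternatives were quantile normalization, log2(value + 16), the mean of probe sets, all transcript clusters, genes above background on 2 or more arrays, moderation with a trend, a common OR21 by IM term, K562 alone, each array left out, a 99th percentile background, 1.5-fold and 3-fold, and each pair alone.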

Additional observations from a re-analysis of the deposited data

Results flagged for a closer look

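The OR21 effect differed between the lines, by the limma test of the difference itself, for 18 genes. Relative to KBM5 it was higher in K562 by 6.67 for H2BC14, 4.06 for GCNA, 4.03 for TKTL1, 4.01 for ALOX12, 3.36 for AKR1E2, 3.24 for AQP1, 3.09 for TUBA3D, 3.09 for LAPTM5, 2.39 for H3-4 and 2.37 for AHSP (log2). It was lower in K562 by a difference of -7.45 for MPO, -5.70 for KCNH2, -5.38 for PPP1R27, -5.27 for PRG2, -5.10 for CST7, -3.94 for C3AR1, -3.09 for CD86 and -3.06 for GATA2. GCNA, ALOX12, AKR1E2, AQP1, TUBA3D, H3-4 and AHSP were at background on all 4 KBM5 arrays, and MPO, PRG2, CST7, C3AR1 and CD86 on all 4 K562 arrays, so the size of those differences is not exact. H2BC14 was above background in KBM5 on the OR21 array only, so the size of its difference is not exact either. LAPTM5 was already high in KBM5, with 27052 and 72235 with OR21 and the combination, against 12985 and 72642 in control and IM. PPP1R27 moved the same way in both lines, with an OR21 effect of 2.10 in K562, where it was above background on 1 array, and 7.48 in KBM5. Among the transcript clusters without a gene name, which the comparisons above do not use, 1 was switched on by OR21 in K562, with 298 and 356 with OR21 and the combination, against 127 and 140 in control and IM.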

How the results depend on the processing

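The number of genes called higher with OR21, 16, was 5 with log2(value + 16), 27 with a trend and robust moderation, 32 with a common OR21 by IM term, 31 with K562 arrays alone and 9 to 31 with 1 array left out. It was 9 without the K562 control or OR21 array, 13 without the K562 IM or combination array and 31 without any 1 KBM5 array. No gene was called lower under any of these fits, while 373 were lower at an unadjusted p under 0.05. Genes whose effect differed between the lines, 18, were 2 with log2(value + 16), 43 with a trend and 6 to 52 with 1 array left out. Switched-on genes, 6, were 11 at 1.5-fold, 51 in the OR21 pair alone and 31 in the combination pair alone. With a background at the 99th percentile there were 5, of which 1 was among the 6. Switched-off genes, 0, were 5 at 1.5-fold, 17 in the OR21 pair alone and 12 in the combination pair alone. Expressed genes raised, 11, were 7 after quantile normalization, 4 with the 99th percentile, 55 at 1.5-fold, 2 at 3-fold, 64 in the OR21 pair alone and 42 in the combination pair alone. Expressed genes lowered, 1, were 0 with log2(value + 16), 0 with the 99th percentile, 28 at 1.5-fold, 0 at 3-fold, 28 in the OR21 pair alone and 11 in the combination pair alone. The offset lowers differences near background by construction, and the cause of the other changes was not tested. Of the values of 71 named genes under these settings, 639 kept direction and side of the threshold, 43 lost the call, 22 gained it and 0 reversed. Fits that give the same K562 result are counted separately here, and fits without a K562 array take their spread from KBM5 alone. The replicate number pairs nothing here, since each group held 1 array. No paired analysis was possible because of that, beyond the treatment pairs of the main comparison.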

Other observations

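The 4 genes that follow were chosen after their values were seen, from those at least 2-fold higher in both pairs, and none of them was called. AIF1, a calcium-binding protein gene of macrophages, read 661 with OR21 and 519 in the combination, against 216 in control and 177 in IM, where it was at background (limma adjusted p = 0.0765). PTPN6, a phosphatase gene of blood cells, read 67.5 and 48.7, against 29.6 and 18.4 (limma adjusted p = 0.346), DOK2, an adaptor protein gene, read 113 and 60.2, against 37.4 and 28.9, and LGALS9, which encodes galectin-9, read 128 and 75.01, against 41.7 and 33.9. PTPN6, DOK2 and LGALS9 were below background on all 4 arrays.

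The genes lowered at least 2-fold in both pairs other than SOSTDC1 were SLC2A3, a glucose transporter gene, with 12896 and 177 with OR21 and the combination, against 29006 and 432 in control and IM, and NAAA and PCCA, which were below background on all 4 arrays. ID2, an inhibitor of basic helix-loop-helix factors, read 1634 with OR21 and 1328 in the combination, against 397 in control and 1748 in IM, so it was higher in the OR21 pair (2.04) and lower in the combination pair (-0.40), with no test of the difference between pairs. Of the 47 genes raised in both pairs, 31 had the larger difference in the OR21 pair and 16 in the combination pair. Over all 17687 genes, 8609 were larger in the OR21 pair and 9078 in the combination pair.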
